A study of Mus musculus with 24 samples.

Results

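The autophagy machinery is represented here by 38 genes, taken from a list of names of genes with known roles in autophagy; the list was drawn up with earlier results of these data known. They are 38 of the 52636 genes counted in polysome-associated RNA of mouse liver, that is, messenger RNA carrying ribosomes. All 38 passed the filter on low counts that left 15490 genes for testing. The CR groups are livers of C57BL/6 mice that were calorie restricted (CR) by 30% from 2 months of age for 3 months, taken at zeitgeber times (ZT, hours of the light cycle) 2, 6, 10, 14, 18 and 22 h. They are set against livers of C57BL/6 mice fed ad libitum (AL) and taken at the same 6 times. All animals were 5 months old, and 2 libraries stood for each of the 12 combinations of diet and hour, 12 per diet. The AL pair of ZT22 is numbered 2C and 2d in the labels. The labels name no transgene and no deletion, and the hour at which the CR mice received food is not given in the sources used here.

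Autophagy encloses cytoplasm, organelles or protein aggregates in a double membrane, the autophagosome, which then fuses with the lysosome for degradation. The ULK kinase complex starts the process, a lipid kinase complex built around Beclin 1 marks the membrane, ATG9 and ATG2 bring lipid to it, and a conjugation machinery couples ATG8 proteins to its lipids, where they hold cargo receptors. In liver the pathway is known for releasing amino acids and lipids during fasting, and for being under the control of nutrient signals and of the circadian clock.

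Counted reads per library numbered 13.8 to 60.8 M, of which features that collect ribosomal RNA took 1.02% to 62.2%, and the 38 members together collected 11450 to 114365 reads. None of 10 hepatocyte markers was without counts over the libraries, and their summed level had a median of 63600 CPM (read counts scaled to library size and composition) in CR and 64000 CPM in AL. As a check of the time labels, Dbp, a clock output factor, was called as rhythmic in both diets, with its peak at 9.46 h in CR and 12.1 h in AL. Libraries that stand apart were CR ZT6 2 and CR ZT18 2, whose summed level of 5 male-biased liver genes was 275 and 873 CPM against 68.7 to 125 CPM in the other 10 CR libraries and 591 to 3419 CPM in AL. AL ZT22 2C held 53738 CPM of 12 acute phase transcripts, the highest of all libraries. The labels do not say that the libraries of a group come from separate animals, so p-values here speak of the spread from library to library, part of which may be technical. Since no total RNA was used here, more or less of a transcript on polysomes may lie in its amount, in its loading onto ribosomes, or in both. In whole liver, fewer cells of a type and less RNA per cell cannot be told apart.

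The results turn on 4 members. The stretches around their transcription starts are shown because these are the genes whose polysome RNA passed a test. Ulk2 and Bnip3 differed between the diets, and Ulk1 and Wipi1 were called as rhythmic in CR. Each line gives the 250 bases before and 50 bases after the RefSeq start of the gene on GRCm38.p6, 5′ to 3′ on the gene's own strand. Capitals mark every match, on either strand, to 6 motifs: CACGTG (E-box, the site of clock and MiT/TFE factors), ACGTG (core of the hypoxia response element, which overlaps the E-box), TTATGTAA (D-box), GTAAACA (forkhead FOXO site), TGACG (core of the cAMP response element) and GGGCGG (GC box).
Ulk2 (chr11:61855043-61855342, minus strand): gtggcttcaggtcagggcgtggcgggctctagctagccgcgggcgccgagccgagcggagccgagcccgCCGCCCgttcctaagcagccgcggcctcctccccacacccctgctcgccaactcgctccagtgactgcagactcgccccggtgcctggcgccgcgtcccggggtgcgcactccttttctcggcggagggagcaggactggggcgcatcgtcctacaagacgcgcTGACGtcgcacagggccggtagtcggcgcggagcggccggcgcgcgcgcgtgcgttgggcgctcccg
Bnip3 (chr7:138909457-138909756, minus strand): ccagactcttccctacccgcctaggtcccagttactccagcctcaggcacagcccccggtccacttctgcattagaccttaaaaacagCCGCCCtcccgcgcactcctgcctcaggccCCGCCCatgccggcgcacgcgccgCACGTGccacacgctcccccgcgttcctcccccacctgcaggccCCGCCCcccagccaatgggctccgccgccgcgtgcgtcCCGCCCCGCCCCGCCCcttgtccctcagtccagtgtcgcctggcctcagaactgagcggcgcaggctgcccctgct
Ulk1 (chr5:110810032-110810331, minus strand): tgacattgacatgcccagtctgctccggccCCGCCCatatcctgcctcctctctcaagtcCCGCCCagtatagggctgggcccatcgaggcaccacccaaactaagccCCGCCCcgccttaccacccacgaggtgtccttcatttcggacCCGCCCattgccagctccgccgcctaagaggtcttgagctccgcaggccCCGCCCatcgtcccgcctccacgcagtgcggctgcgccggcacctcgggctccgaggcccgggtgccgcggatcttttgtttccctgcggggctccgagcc
Wipi1 (chr11:109611340-109611639, minus strand): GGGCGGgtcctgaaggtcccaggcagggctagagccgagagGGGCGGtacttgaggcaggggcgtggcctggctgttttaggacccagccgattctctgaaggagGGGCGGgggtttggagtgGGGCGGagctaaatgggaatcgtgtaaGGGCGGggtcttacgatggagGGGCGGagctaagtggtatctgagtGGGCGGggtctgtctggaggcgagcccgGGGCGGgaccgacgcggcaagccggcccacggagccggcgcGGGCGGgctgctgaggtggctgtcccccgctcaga

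Of these 4 windows, that of Bnip3 held CACGTG, once, with the overlapping ACGTG on both strands, and 6 GC boxes. The windows of Ulk1 and Wipi1 held GC boxes alone among the motifs searched, 5 and 9 of them, and the window of Ulk2 held 1 GC box and 1 TGACG. Among 32851 promoter windows of the same length, 7.15% held CACGTG, 19.6% ACGTG, 0.938% TTATGTAA, 3.65% GTAAACA, 20.8% TGACG and 35.7% GGGCGG. Of the 31 members with a window in the table, 5 held CACGTG (Atg3, Atg5, Atg7, Atg14 and Bnip3), 15 ACGTG, 0 TTATGTAA, 0 GTAAACA, 10 TGACG and 22 GGGCGG. A match is a run of letters and no evidence that a factor binds there.

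Levels per length differed widely among the members, as the plot of levels per kb shows. At the top stood 3 of the 5 ATG8 proteins, small ubiquitin-like proteins that decorate the autophagosome, and the receptor Sqstm1 (p62), which ties ubiquitinated cargo to them. Gabarap averaged 96.5 ± 31.3 CPM per kb of exon in CR and 120 ± 35.9 in AL (SD, n = 12 each). Map1lc3a averaged 73.3 ± 38.2 CPM per kb in CR and 73.8 ± 34.0 in AL. Sqstm1 averaged 72.3 ± 10.1 CPM per kb in CR and 70.1 ± 18.0 in AL. Gabarapl1 averaged 56.7 ± 21.7 CPM per kb in CR and 62.2 ± 31.8 in AL. The mean ± SD of these 3 genes and of Gabarapl1 overlapped within each diet. Each SD holds the spread over the day, and the genes share libraries, so this overlap does not decide their order, which was not tested. Levels per kb use full exon lengths, including stretches that overlap other genes, 28.3% for Gabarapl1 and 17.3% for Sqstm1. The other ATG8 proteins were lower, Gabarapl2 at 11.8 ± 4.82 CPM per kb in CR and 15.0 ± 4.22 in AL, and Map1lc3b at 7.23 ± 2.82 in CR and 7.74 ± 2.14 in AL. Their order rests on the exon lengths used, 2325 bases for Gabarapl2 and 7517 for Map1lc3b. In CPM the mean of Map1lc3b was the higher one in every group. Averaged over the diets, 11 of the 38 members exceeded 10 CPM per kb and 15 lay below 2. Lowest was Atg9a, the scramblase of the vesicles that seed the autophagosome, at 0.234 ± 0.314 CPM per kb in CR and 0.179 ± 0.143 in AL, with 0 to 157 reads per library, and 32.6% of its exon length overlaps Ankzf1 and Gm29253. Summed over the 38 members, the libraries ranged from 1225 to 1894 CPM with a median of 1356 CPM in CR, and from 1082 to 1757 CPM with a median of 1533 CPM in AL, so that the diets overlapped.

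**Figure D1:**
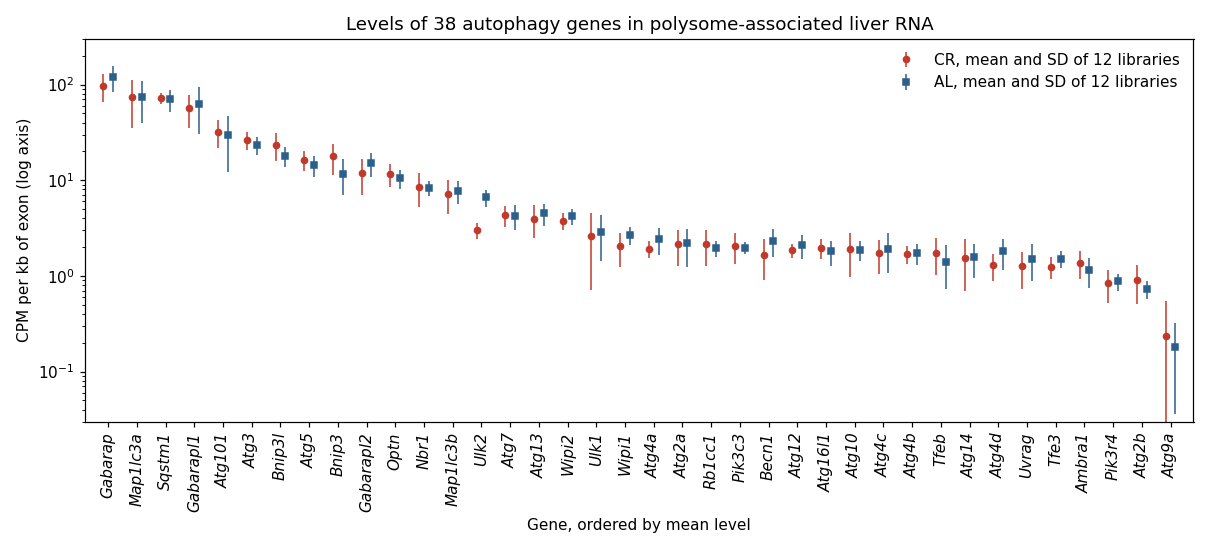
Level of each of the 38 genes in CPM per kb of exon, on a log axis, with genes ordered by mean level; red circles are the mean of the 12 CR libraries, blue squares the mean of the 12 AL libraries, and bars the SD, which runs off the axis for Atg9a in CR. Gabarap has the highest mean and Atg9a the lowest. Ulk2 is the gene whose diets do not overlap, at 3.0 ± 0.595 in CR and 6.60 ± 1.36 in AL.

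The diets were first compared on the average of the 6 time points, to which the time points may contribute unequally. Of the 38 members 2 passed the test (5.26%), 1 higher and 1 lower in CR, where 12.7% of all 15490 tested genes passed, 5.6% as higher and 7.05% as lower (edgeR quasi-likelihood test, Benjamini-Hochberg adjusted over all tested genes and called under 0.05). The lower member was Ulk2, a kinase that starts autophagosome formation, and the higher one Bnip3, a receptor that takes mitochondria into autophagosomes. At an unadjusted p under 0.05 there were 8 members (21.1%) against 26.6% of all genes. The members' median log2 change, CR minus AL, was -0.06 against -0.02 for all genes, with 15 positive and 23 negative values, and their median absolute log2 change was 0.17 against 0.30. The 95% intervals of the log2 changes had half-widths of 0.24 to 1.02, with a median of 0.33. For 36 of the 38 members the interval lay within 1 log2 unit of 0, and for 19 within 0.5. The plot of diet differences by role shows these intervals.

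**Figure D2:**
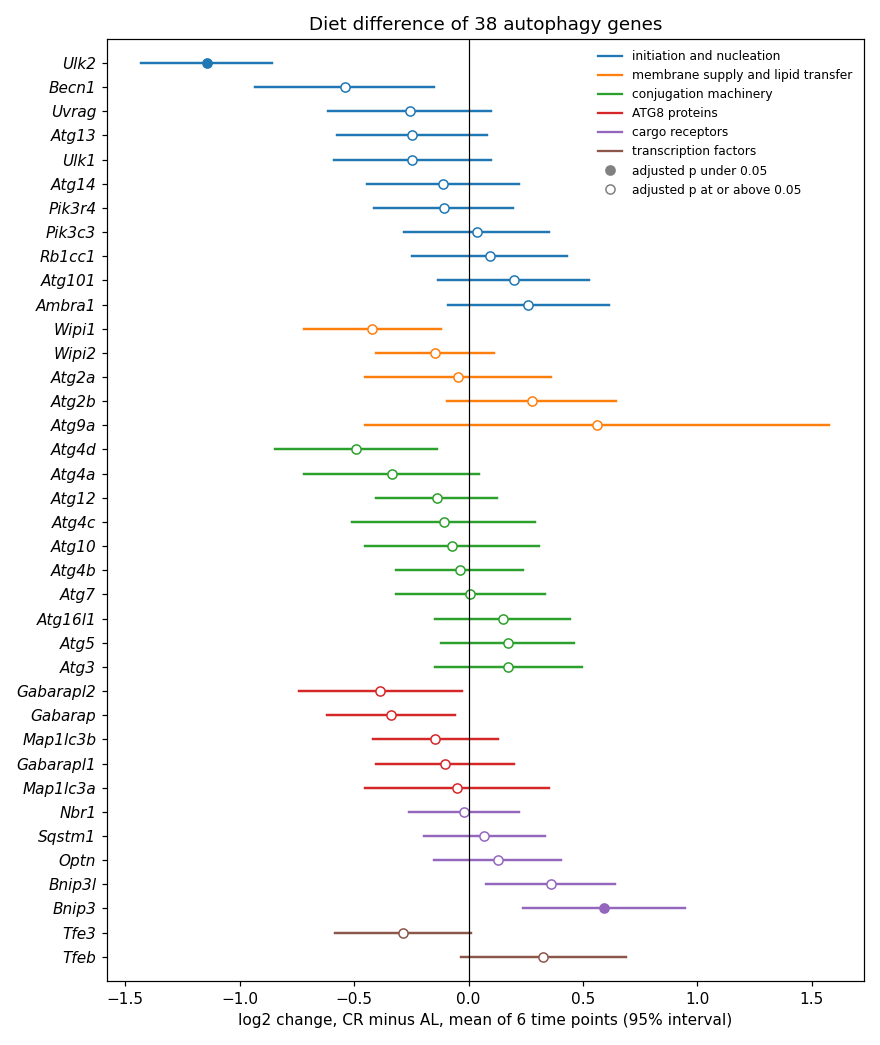
Log2 change, CR minus AL averaged over 6 time points, of each of the 38 genes with its 95% interval, coloured and grouped by role; filled points have an adjusted p under 0.05. Ulk2 at -1.14 and Bnip3 at 0.59 are the 2 filled points, and Atg9a has the widest interval, -0.45 to 1.58.

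Among the 11 members of initiation and nucleation, Ulk2 was lower in CR and the other 10 did not pass. Ulk2 (ENSMUSG00000004798.14, chr11:61775649-61855073, minus strand, GRCm38) ranged from 12.5 to 23.5 CPM with a median of 17.1 CPM in the 12 CR libraries, and from 26.0 to 55.9 CPM with a median of 40.9 CPM in the 12 AL libraries. Every CR library lay below every AL library; the diets failed to overlap in this way for 1 of the 38 members and for 0.284% of all tested genes. Ulk2 fell by 1.14 ± 0.14 log2 units (± SE), which is 2.21-fold lower in CR (edgeR, adjusted p = 4.78e-06). The call held without any single library, with changes from -1.21 to -1.06 and adjusted p of at most 3.55e-05 (edgeR), and without the pair CR ZT6 2 and CR ZT18 2 the change was -1.23. No exon of Ulk2 overlaps another gene, and none of its 50-base words occurs in transcripts of another gene. At ZT22 the CR libraries held 12.5 and 15.0 CPM of Ulk2, and the AL libraries 40.6 and 55.9 CPM. Here the 2 CR libraries lay below the 2 AL libraries, and at -1.81 ± 0.34 log2 units Ulk2 was the one member called at any time point (edgeR, adjusted p = 0.00949). The ZT22 call was lost without AL ZT22 2d (-1.56, adjusted p = 0.0749), CR ZT22 1 (-1.65, 0.278) or CR ZT22 2 (-1.84, 0.0790), each of which leaves 1 library whose spread is taken from the other groups, and without a composition factor (-0.87, 0.224). Both AL libraries behind it are numbered 2 (2C and 2d), and the labels do not say that they come from separate animals.

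Ulk1, the paralog usually assigned the main part in starvation-induced autophagy, ranged from 4.12 to 50.9 CPM with a median of 13.5 CPM in CR, and from 8.44 to 37.2 CPM with a median of 16.4 CPM in AL, at -0.25 ± 0.17 log2 units (adjusted p = 0.373 by edgeR). Per kb of exon, the ratio of Ulk2 to Ulk1 had a median of 1.17 in CR (0.483 to 4.25) and of 2.61 in AL (0.968 to 6.05), and it exceeded 1 in 8 of 12 CR libraries and 11 of 12 AL libraries. Of the ULK partners, Atg13 and Rb1cc1 (FIP200), which scaffold the complex, had log2 changes of -0.25 and 0.09, and Atg101, which stabilizes Atg13, of 0.20. In the lipid kinase complex, Becn1 (Beclin 1) had a log2 change of -0.54 ± 0.19 and missed the threshold (adjusted p = 0.0637 by edgeR). Becn1 ranged from 4.54 to 22.0 CPM in CR and from 5.23 to 26.0 CPM in AL, a wide overlap. Its exons share 43.9% of their length with the gene Cntd1, and the reads carry no strand, so reads from there cannot be assigned, and Cntd1 itself had 0 to 4 counts per library. Becn1 was called without AL ZT6 1 (-0.63, adjusted p = 0.0306), AL ZT18 1 (-0.59, 0.0481), CR ZT10 2 (-0.69, 0.00924), CR ZT18 1 (-0.62, 0.0469) or CR ZT22 2 (-0.60, 0.0443), by edgeR. The catalytic subunit Pik3c3 (VPS34) stood at 0.04, its regulatory partner Pik3r4 (VPS15) at -0.11, the autophagy-specific subunit Atg14 at -0.11, its alternative Uvrag at -0.26, and Ambra1, a scaffold that links the complex to ULK1, at 0.26, all log2 changes that did not pass.

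Of the 5 members of membrane supply and lipid transfer 0 passed on the diet average by edgeR and 0 by DESeq2, and 1 had an unadjusted p under 0.05. Wipi1, which reads the lipid mark made by the Beclin 1 complex, was that 1. Wipi1 ranged from 4.55 to 16.3 CPM with a median of 8.20 CPM in CR and from 8.86 to 16.3 CPM with a median of 11.2 CPM in AL. The diets overlapped, and the log2 change was -0.42 ± 0.14 (adjusted p = 0.0592 by edgeR). Wipi1 was called without CR ZT10 1 (-0.54, adjusted p = 0.00578) or CR ZT18 2 (-0.47, 0.0480), by edgeR. Its paralog Wipi2, which recruits the conjugation machinery, stood at -0.15, and the lipid transfer proteins Atg2a and Atg2b at -0.05 and 0.28. Atg9a had a log2 change of 0.56 ± 0.49, but without CR ZT10 2 the value was -0.20. The libraries of CR ZT10 held 0.133 and 6.54 CPM of Atg9a, with 2.42% and 52.1% of reads in features of ribosomal RNA. The part of ribosomal RNA in that gap was not tested. Over the 12 groups, Atg9a was higher in the library with more such reads in 7 and lower in 5.

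Of the 10 members of the conjugation machinery 0 passed by edgeR and 0 by DESeq2, and 1, Atg4d, had an unadjusted p under 0.05. Their median log2 change was -0.05. Atg7, the activating enzyme of both conjugation reactions, was at 0.01, and Atg3 and Atg10, the transfer enzymes for ATG8 proteins and for Atg12, at 0.17 and -0.07. Atg5, Atg12 and Atg16l1, which together form the ligase, were at 0.17, -0.14 and 0.15. The Atg4 proteases trim ATG8 proteins and free them from the membrane, and their log2 changes were -0.34 for Atg4a, -0.04 for Atg4b, -0.11 for Atg4c and -0.49 ± 0.17 for Atg4d. Atg4d ranged from 6.04 to 15.7 CPM in CR and from 6.27 to 23.1 CPM in AL, which overlap, and had an adjusted p of 0.0627 by edgeR. Atg4d was called without AL ZT6 1 (-0.56, adjusted p = 0.0378), AL ZT14 2 (-0.57, 0.0197), CR ZT6 1 (-0.59, 0.0295) or CR ZT10 2 (-0.55, 0.0310), by edgeR. Kri1 overlaps 19.3% of the exon length of Atg4d, and reads from there cannot be assigned. Of the 50-base words of Atg4a, 51.2% occur in the pseudogene Atg4a-ps, which had 0 to 3 counts per library.

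The 5 ATG8 proteins all had negative values on the diet average, but 0 passed by edgeR and 0 by DESeq2, and 2 had an unadjusted p under 0.05, Gabarap and Gabarapl2. The log2 change was -0.34 ± 0.13 for Gabarap (adjusted p = 0.103 by edgeR), -0.39 ± 0.17 for Gabarapl2 (0.150), -0.15 for Map1lc3b, -0.10 for Gabarapl1 and -0.05 for Map1lc3a. Leaving out single libraries brought Map1lc3a up to 0.065 and Gabarapl1 up to 0.014. At ZT14 all 5 were positive, from 0.24 for Gabarap to 1.13 for Gabarapl1. Gabarapl2 was called without CR ZT6 2 (-0.53, adjusted p = 0.0309 by edgeR). Summed, they ranged from 338 to 851 CPM with a median of 423 CPM in CR, and from 301 to 695 CPM with a median of 521 CPM in AL.

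Among the 5 cargo receptors, Bnip3 was higher in CR. Bnip3 (ENSMUSG00000078566.8, chr7:138890836-138909519, minus strand, GRCm38) ranged from 20.3 to 73.0 CPM with a median of 39.5 CPM in CR, and from 8.57 to 47.8 CPM with a median of 27.3 CPM in AL. The diets overlapped over the day, while at each time point the mean of the CR libraries was the higher one. Bnip3 rose by 0.59 ± 0.17 log2 units, which is 1.51-fold (edgeR, adjusted p = 0.0251). The call was lost without AL ZT10 1 (0.57, adjusted p = 0.0529), AL ZT22 2C (0.53, 0.0578), CR ZT6 2 (0.54, 0.0520) or CR ZT14 1 (0.53, 0.0575). It was also lost without both AL ZT10 1 and AL ZT22 2C (0.50, 0.106), without both libraries of the pair CR ZT6 2 and CR ZT18 2 (0.55, 0.0639) and without a composition factor (0.55, 0.164). Of its 50-base words 47.2% occur in transcripts of other genes, chiefly AC160336.1, a name without an entry among the genes counted. Gm45507 overlaps 22.3% of the exon length of Bnip3, with 0 counts in every library. Bnip3l (NIX), its paralog and also a receptor for mitochondria, ranged from 62.3 to 145 CPM in CR and from 49.4 to 114 CPM in AL, at 0.36 ± 0.14 log2 units (adjusted p = 0.0850 by edgeR). Bnip3l was called by DESeq2 (0.40, adjusted p = 0.0298), and by edgeR without CR ZT6 1 (0.42, 0.0367) or CR ZT10 2 (0.40, 0.0440); its pseudogene Bnip3l-ps holds 20.8% of its 50-base words. The ratio of Bnip3 to Bnip3l per kb had a median of 0.853 in CR (0.423 to 1.24) and 0.675 in AL (0.201 to 1.16). This ratio uses full exon lengths, including stretches shared with other genes, so which of the 2 is more abundant is not settled. Sqstm1, which shares 17.3% of its exon length with Mrnip, stood at 0.07, Nbr1, which works with it on aggregates, at -0.02, and Optn, a receptor for mitochondria and bacteria, at 0.13.

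**Figure D3:**
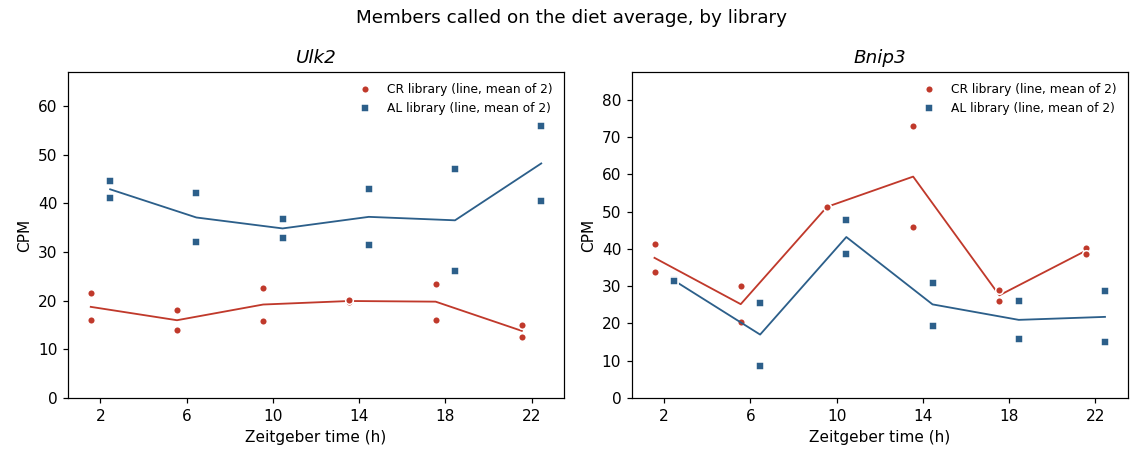
CPM of Ulk2 (left) and Bnip3 (right) in each library against zeitgeber time in hours; red circles are CR and blue squares AL libraries, drawn slightly left and right of their time point, and lines join the means of 2. The CR libraries of Ulk2 (12.5 to 23.5 CPM) all lie below the AL libraries (26.0 to 55.9 CPM), whereas those of Bnip3 overlap.

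The transcription factors Tfeb and Tfe3, which drive lysosome and autophagy genes when nutrients are short, did not pass: 0 of these 2 were called by edgeR, 0 by DESeq2, and 0 had an unadjusted p under 0.05. The log2 change was 0.33 ± 0.17 for Tfeb and -0.29 ± 0.14 for Tfe3 (adjusted p = 0.241 and 0.204 by edgeR). Tfe3 was called without CR ZT10 1 (-0.40, adjusted p = 0.0402 by edgeR).

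Markers of other cell types differed between the diets beside these members. For Kupffer cells, macrophages that reside in liver, 11 of 13 marker genes were called lower and 1, Marco, higher in CR. Their summed level ranged from 136 to 248 CPM with a median of 184 CPM in CR, and from 243 to 706 CPM with a median of 340 CPM in AL. Of 10 stellate cell and fibroblast markers 4 were called higher, with summed levels of 189 to 328 CPM in CR and 92.8 to 330 CPM in AL, and among 10 tested lymphocyte markers (T, B and NK) there were 2 called lower, with sums of 2.58 to 19.5 CPM in CR and 5.59 to 37.0 CPM in AL. Of 12 acute phase genes 3 were called lower. Of 10 hepatocyte markers 2 were called higher (Pck1 and Cyp3a11) and 1 lower (Serpina1c), of 10 endothelial markers 1 higher and 1 lower, and of 5 red blood cell markers 1 lower; of 5 tested neutrophil markers 0 were called by edgeR, with 0 at an unadjusted p under 0.05, and of 5 tested cholangiocyte markers 0, with 1 at that p. Among all tested genes, 12.7% were called on the diet average. All 13 Kupffer cell markers had counts in both diets, and the part of these shifts in the changes of Ulk2 and Bnip3 was not tested.

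The diets were also compared at each time point. Ulk2 at ZT22 was the single call. By edgeR 0 of 38 members were called at ZT2, ZT6, ZT10, ZT14 and ZT18, where 0.562%, 0.387%, 0.742%, 1.7% and 0.562% of all genes were called, and 1 of 38 at ZT22, where 0.936% were. At an unadjusted p under 0.05 there were 3 members at ZT2 (7.47% of all genes), 4 at ZT6 (13.7%), 2 at ZT10 (10.8%), 4 at ZT14 (14.2%), 5 at ZT18 (10.5%) and 5 at ZT22 (14.3%). DESeq2 called 0 at ZT2, ZT10 and ZT18, 1 at ZT6 and at ZT22, in both cases Ulk2, and 2 at ZT14, Gabarapl1 and Bnip3l. The changes of Ulk2 were -1.19, -1.22, -0.86, -0.90, -0.88 and -1.81 log2 units from ZT2 to ZT22. Those of Bnip3 were 0.25, 0.56, 0.25, 1.24, 0.39 and 0.86. The sign was the same at all 6 time points for 5 members, Ulk2, Atg4a and Atg4d lower and Atg3 and Bnip3 higher in CR, and for 14.2% of all tested genes.

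At ZT14, early in the dark phase, the log2 change was positive for 23 members, with a median of 0.17, against 0.00 for all genes. Bnip3l held 145 and 140 CPM in CR ZT14 and 71.5 and 51.1 CPM in AL ZT14, at 1.22 ± 0.34 log2 units (adjusted p = 0.0721 by edgeR). It was called, with the same change, without CR ZT6 1 (adjusted p = 0.0442), CR ZT6 2 (0.0443), CR ZT10 1 (0.0432) or CR ZT10 2 (0.0430), by edgeR. Gabarapl1 held 198 and 178 CPM in CR ZT14 and 103 and 68.5 CPM in AL ZT14, at 1.13 ± 0.36 (adjusted p = 0.130 by edgeR), and Bnip3 stood at 1.24 ± 0.42 (0.166). Gabarapl1 was negative at ZT2, ZT6, ZT10 and ZT18, with 28.3% of its exon length overlapping 1700101I11Rik. At ZT18 the log2 change was negative for 30 of 38 members, with a median of -0.21, against -0.06 for all genes. Becn1 (-1.49 ± 0.47), Atg4d (-1.10 ± 0.42), Wipi1 (-1.03 ± 0.35), Atg13 (-1.02 ± 0.39) and Ulk2 (-0.88 ± 0.33) had unadjusted p under 0.05 there, with adjusted p from 0.205 to 0.319 by edgeR. Without a composition factor the median of all genes moved to 0.17 at ZT18 and 0.27 at ZT14, a shift that every gene shares.

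**Figure D4:**
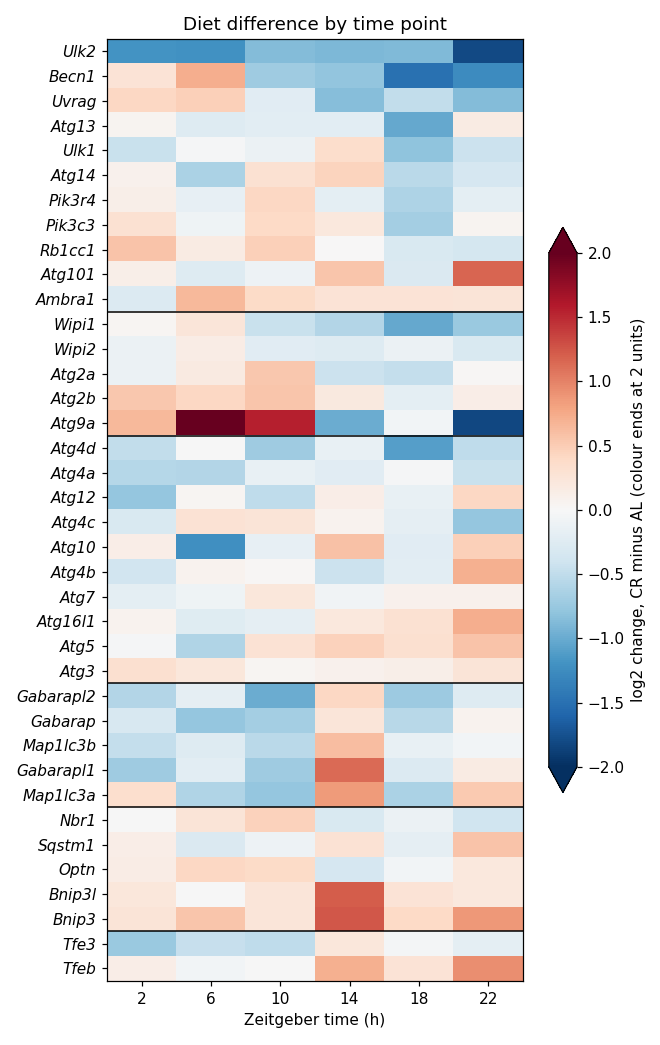
Log2 change, CR minus AL, of each gene at each zeitgeber time in hours (red higher in CR, blue lower in CR, colour ending at 2 units), with genes in role blocks separated by lines. Ulk2 is blue in each column, at -0.86 to -1.81, Bnip3 is red in each, at 0.25 to 1.24, and Becn1 is 0.72 at ZT6 and -1.49 at ZT18.

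Whether the diet difference varied with time was tested directly. By edgeR 0 of 38 members passed, as did 0.0% of all genes; at an unadjusted p under 0.05 there were 2 members, Gabarapl1 and Becn1 (adjusted p = 0.527 for both), against 8.63% of all genes, and DESeq2 called 0. The log2 change of Becn1 was 0.28, 0.72, -0.70, -0.80, -1.49 and -1.26 from ZT2 to ZT22, values of both signs that are not shown to differ.

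Rhythms of 24 h were fitted in each diet, with an amplitude in log2 that runs from the mean up to the peak. In CR 2 of 38 members were called, Ulk1 and Wipi1, against 1.94% of all genes (edgeR quasi-likelihood F-test, Benjamini-Hochberg adjusted). Ulk1 (ENSMUSG00000029512.11, chr5:110784488-110810097, minus strand) held 10.7 and 9.39 CPM at ZT2, 14.4 and 19.1 at ZT6, 18.0 and 50.9 at ZT10, 21.9 and 26.2 at ZT14, 4.12 and 7.45 at ZT18, and 9.34 and 12.6 at ZT22 in CR. In AL it held 11.4 and 16.0 CPM at ZT2, 16.7 and 17.5 at ZT6, 37.0 and 37.2 at ZT10, 16.0 and 21.8 at ZT14, 11.9 and 8.44 at ZT18, and 17.7 and 11.9 at ZT22. The mean of the 2 libraries was highest at ZT10, late in the light phase, and lowest at ZT18 in both diets. The amplitude was 0.96 with a peak at 9.90 h in CR (adjusted p = 0.0295) and 0.66 with a peak at 9.51 h in AL (adjusted p = 0.314), by edgeR. The CR call of Ulk1 was lost without CR ZT2 1 (adjusted p = 0.0593), CR ZT2 2 (0.0570), CR ZT10 2 (0.110, amplitude 0.72), CR ZT14 2 (0.0570), CR ZT18 2 (0.0594) or CR ZT22 1 (0.0556).

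Wipi1 (ENSMUSG00000041895.15, chr11:109573331-109611967, minus strand) held 9.21 and 9.56 CPM at ZT2, 11 and 14.5 at ZT6, 16.3 and 7.0 at ZT10, 9.33 and 7.18 at ZT14, 4.55 and 6.61 at ZT18, and 6.37 and 5.76 at ZT22 in CR. In AL it held 8.86 and 9.33 CPM at ZT2, 11.3 and 10.3 at ZT6, 15.7 and 16.3 at ZT10, 10.7 and 14.3 at ZT14, 11.4 and 11.4 at ZT18, and 11 and 9.27 at ZT22. At each of ZT14, ZT18 and ZT22 both CR libraries lay below both AL libraries, while at ZT2, ZT6 and ZT10 the diets overlapped. The diet difference of Wipi1 was not called at ZT14, ZT18 or ZT22 (adjusted p = 0.469, 0.256 and 0.350 by edgeR). How often 2 libraries lie apart from 2 over all genes was not counted. The amplitude was 0.63 with a peak at 7.37 h in CR (adjusted p = 0.0392) and 0.33 with a peak at 11.9 h in AL (adjusted p = 0.535), by edgeR. The CR call of Wipi1 was lost in 11 of 24 fits that left out 1 library, with adjusted p from 0.0532 to 0.130 by edgeR. Those without AL ZT2 1 and without AL ZT2 2 gave 0.0532 each, and those without a CR library gave 0.0628 (ZT2 1), 0.0568 (ZT2 2), 0.0779 (ZT6 2), 0.0827 (ZT10 1), 0.0702 (ZT14 2), 0.130 (ZT18 1), 0.0620 (ZT18 2), 0.0781 (ZT22 1) and 0.0875 (ZT22 2). Fitted on the 12 CR libraries alone, neither gene was called (adjusted p = 0.116 for Ulk1 and 0.181 for Wipi1).

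**Figure D5:**
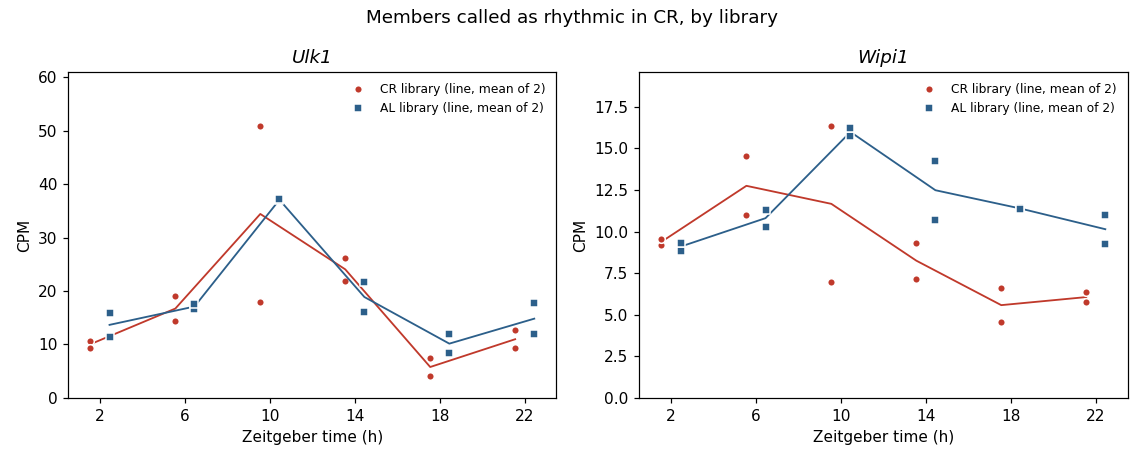
CPM of Ulk1 (left) and Wipi1 (right) in each library against zeitgeber time in hours; red circles are CR and blue squares AL libraries, drawn slightly left and right of their time point, and lines join the means of 2. Ulk1 is highest at ZT10 in both diets, where its CR libraries lie far apart (18.0 and 50.9 CPM). Wipi1 lies lower in CR than in AL from ZT14 to ZT22, times at which its diet difference was not called.

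No further member was called in CR by edgeR. At an unadjusted p under 0.05 there were 9 members in CR (17.4% of all genes): besides Ulk1 and Wipi1 they were Map1lc3b (amplitude 0.55, peak 14.1 h, adjusted p = 0.0959), Tfeb (0.69, 14.8 h, 0.115), Nbr1 (0.47, 7.98 h), Gabarapl1 (0.53, 12 h), Rb1cc1 (0.52, 6.17 h), Pik3c3 (0.46, 6.55 h) and Bnip3l (0.41, 12.8 h). Map1lc3b is the ATG8 protein used most often as a marker of autophagosomes. In CR it held 89.8 and 102 CPM at ZT14 and 32.5 to 62.1 CPM at the other times. In AL it held 81.3 and 44.1 CPM at ZT14 and 39.3 to 78.9 CPM at the others. Within 11 of the 12 groups Map1lc3b was lower in the library with more reads in ribosomal RNA features, and within 1 higher. Such reads made up 28.9% and 18.8% in CR ZT14, and their part in the ZT14 level was not tested. Map1lc3b was called in CR by DESeq2 (adjusted p = 0.0272) and by edgeR without CR ZT10 2 (0.0476). Tfeb was highest at ZT18 in CR, with 12.7 and 16.3 CPM, and lowest at ZT2, with 5.72 and 5.34 CPM; in AL it was highest at ZT18, with 16.4 and 7.77 CPM, and lowest at ZT22, with 4.22 and 3.60 CPM. Gabarapl1 was highest at ZT14 in CR, with 198 and 178 CPM, and at ZT10 in AL, with 290 and 186 CPM. The group means of Nbr1 ran from 43.6 to 100.7 CPM in CR and from 48.7 to 73.0 CPM in AL, highest at ZT10 in both. Those of Bnip3l ran from 68.5 to 142.7 CPM in CR and from 59.3 to 93.1 CPM in AL, those of Rb1cc1 from 18.6 to 44.6 CPM in CR and from 22.9 to 35.6 CPM in AL, and those of Pik3c3 from 5.69 to 11.7 CPM in CR and from 7.22 to 10.7 CPM in AL. All 3 were lowest at ZT18 or ZT22. In AL 0 of 38 members were called by edgeR and 0 by DESeq2, against 0.42% of all genes; 5 had an unadjusted p under 0.05 (10.4% of all genes), Ulk1, Gabarapl1, Atg16l1, Tfeb and Atg4c. Ulk1, Gabarapl1 and Tfeb appear for both diets. Over the 38 members the median amplitude was 0.34 in CR, against 0.42 for all genes, and 0.26 in AL, against 0.38 for all genes. The difference in rhythm between the diets was called for 0 members by edgeR and 0 by DESeq2, and for 0.0% of all genes by edgeR; 2 members, Becn1 and Wipi1, had an unadjusted p under 0.05 (6.49% of all genes). The calls of Ulk1 and Wipi1 in CR and not in AL are therefore not shown to differ between the diets.

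Genes that work beside the members were counted in lists made with earlier results of these data known, and each count on the diet average is to be read against the 12.7% of all tested genes called there. Of 21 other genes of initiation and membrane formation, 1 was higher and 3 lower in CR on the diet average: Rab33b, a GTPase that binds Atg16l1, at 0.43 ± 0.14 log2 units, and Trp53inp2 (-0.89 ± 0.18), which brings ATG8 proteins to the autophagosome, Atg16l2 (-0.93 ± 0.22), a paralog of Atg16l1, and Vmp1 (-0.50 ± 0.16), a scramblase of the endoplasmic reticulum. Of 19 other receptors 3 were higher and 0 lower. These were Retreg1 (0.92 ± 0.15) and Sec62 (0.62 ± 0.19), which both deliver endoplasmic reticulum to the lysosome, and Tollip (0.38 ± 0.12), a receptor for aggregates. Of 16 genes of the fusion of autophagosome and lysosome, 0 were called by edgeR and 4 had an unadjusted p under 0.05; 1 of the 16, Gabarapl2, is also a member. Of 31 lysosomal genes 2 were higher, Cd63 (0.77 ± 0.19) and the protease Ctsl (0.50 ± 0.14), and 2 lower, the proton pump subunits Atp6v0d1 (-0.45 ± 0.13) and Atp6v0e (-0.50 ± 0.17).

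Upstream, 3 of 23 genes of nutrient sensing were higher and 0 lower: Fnip1 (0.60 ± 0.13) and Fnip2 (0.54 ± 0.18), partners of folliculin, and Prkab1 (0.42 ± 0.14), a subunit of AMP-activated kinase. Of 19 transcriptional regulators 2 were higher, the coactivator Ppargc1a (1.62 ± 0.22) and Foxo1 (0.68 ± 0.13), and 2 lower, E2f1 (-0.93 ± 0.28) and Tfec (-1.30 ± 0.41), a relative of Tfeb. Among the genes named from these lists the highest adjusted p was 0.0488 (edgeR). In CR, 6 of the 19 regulators were called as rhythmic, where 1.94% of all genes were, among them Nr1d2 (peak 8.88 h), Nr1d1 (6.14 h), Foxo1 (13.6 h) and Cebpb (11.7 h), and in AL 2, where 0.42% of all genes were, Nr1d1 (6.78 h) and Nr1d2 (9.34 h). Of the 19 other receptors 3 were called as rhythmic in CR and 1 in AL. Among those called in CR, Calcoco1, a receptor for endoplasmic reticulum, had an amplitude of 1.38 and a peak at 9.03 h. Of the 21 other genes of initiation and membrane formation 1 was called as rhythmic in CR and 0 in AL. The one called in CR was C9orf72, part of a complex that acts with ULK1, with 0.85 and 11.5 h. Of 16 clock genes 13 were called as rhythmic in CR and 10 in AL. Nr1d1 and Nr1d2 belong to both the regulators and the clock genes, so they are counted in both lists.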

How the data were processed

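Polysome RNA of mouse liver was sequenced in 24 libraries (12 CR and 12 AL, 2 per time point). The authors deposited raw counts of reads per gene, 13.8 to 60.8 M per library. FastQC, HTSeq, DESeq2 and build GRCm38.p5 are named, per the submitters' processing notes, with aligner and versions not given in the sources used here. Libraries were poly(A) selected and hold no strand, per the labels. Names, coordinates and exon lengths come from GENCODE M21 (GRCm38), promoters from RefSeq (GRCm38.p6).

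The counts entered edgeR 4.0.16 (R 4.3.3; quasi-likelihood fit, TMM composition factors, filterByExpr over 12 groups). All libraries shared 1 fit, with a mean per group or with cosine and sine terms of 24 h per diet. Benjamini-Hochberg adjustment covered all tested genes, with calls under 0.05. CPM uses the same factors. The tests were tried on simulated counts. How often the intervals hold the true value was not checked there.

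Alternatives were DESeq2 1.42.0, other scalings and filters, ribosomal RNA features (363) left out or as a covariate, pairs of libraries left out, subsets of libraries, an additive model, blocks by replicate number, and each library left out in turn. Members and lists were chosen with earlier results of these data known. All 38 members are named. Values by library or group were set for called members and up to 10 of smallest p per rhythm test, and up to 4 called genes of smallest p are named per other list. Atg9a and Becn1, and the ZT14 values of Bnip3l and Gabarapl1, were chosen after their values were seen.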

Additional observations from a re-analysis of the deposited data

How the results depend on the processing

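By edgeR, the number of members called on the diet average was 2. It was 4 without a low-count filter (Becn1 and Atg4d added) and 4 with ribosomal RNA as a covariate (Becn1 and Wipi1 added), 1 without AL ZT22 2C and AL ZT10 1 (Bnip3 lost, 0.50, adjusted p = 0.106), and 1 to 5 when a library was left out. It was 3 by DESeq2 and 3 with the 1 CPM filter, with Bnip3l added in both. It was 2 with Bnip3 lost and another gained without a composition factor (Becn1, -0.62, adjusted p = 0.0376) and without CR ZT6 2 and CR ZT18 2 (Wipi1, -0.51, 0.0449). At ZT2 it was 1 with the 4 libraries of that time alone (Ulk2), against 0. At ZT6 it was 1 by DESeq2 (Ulk2) and 1 without the filter (Atg9a), against 0. At ZT14 it was 2 by DESeq2 and 2 with its 4 libraries alone (Bnip3 and Bnip3l), and 0 to 1 with a library left out, against 0. At ZT18 it was 1 without the filter (Becn1) and 1 without CR ZT6 2 and CR ZT18 2 (Atg13), against 0. At ZT22 it was 6 without a composition factor, without Ulk2, and 0 to 1 with a library left out, against 1. The interaction gave 2 without the filter (Becn1 and Atg9a), against 0. Rhythms in CR gave 0 without a composition factor, 1 without AL ZT22 2C and AL ZT10 1 (Ulk1), 0 without CR ZT6 2 and CR ZT18 2, 0 on the CR libraries alone and 0 to 2 with a library left out, against 2. For these differences the cause was not tested. Among the called results no direction reversed in the alternatives run. Of those not called, Atg9a went to -0.20 on the diet average without CR ZT10 2. The sign of Pik3c3, Atg2a, Atg4b, Atg7, Rb1cc1, Map1lc3a, Gabarapl1 and Nbr1 also varied with the library left out, within -0.18 to 0.22. Without a composition factor the median log2 change of all genes was -0.80, -0.46, -0.26, 0.27, 0.17 and 0.91 from ZT2 to ZT22.

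Over all genes, the 1960 calls of the diet average (868 higher, 1092 lower) were 1170 without a composition factor and 1303 without AL ZT22 2C and AL ZT10 1, and the split was 1283 higher and 1238 lower by DESeq2, 982 and 955 with its size factors in edgeR, and 894 and 797 with a filter of 1 CPM. DESeq2 called 213, 320, 341, 619, 236 and 526 genes from ZT2 to ZT22, where edgeR called 87, 60, 115, 264, 87 and 145. For the interaction, rhythms in CR, rhythms in AL and their difference edgeR called 0, 301, 65 and 0 genes, DESeq2 188, 729, 267 and 6, and edgeR without a filter 709, 1244, 447 and 295. Without a composition factor 1703 genes were called at ZT22. With a replicate block the members called were 2 on the diet average (Ulk2 at -1.14, Bnip3 at 0.59, adjusted p = 0.0309), 1 at ZT22, 2 for rhythms in CR and 0 elsewhere, so no call changed. The labels do not say that the numbers pair the samples. Deviations of same-numbered CR and AL libraries correlated at -0.14, -0.06, 0.28, 0.08 and -0.13 from ZT2 to ZT18, across genes. With 2 libraries a group, the deviations mirror each other, so these values do not settle whether a number marks a shared day or batch. At ZT22 no pair can be formed, since both AL libraries carry the number 2 that 1 CR library carries. With 2 libraries a group, depth and replication leave the 95% intervals as the limit of what could be seen. Those given above are for the diet average, and at single time points they were wider. For Ulk2 the interval ran from -1.43 to -0.86 on the diet average and from -1.60 to -0.21 at ZT14.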
